A study of Rattus norvegicus with 28 samples.

Results

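Desipramine and fluoxetine, antidepressants of different class, were compared directly in C6 cells, a rat glioma line used as a model of astrocytes. The comparison took the 6 arrays of desipramine-treated cells against the 6 arrays of fluoxetine-treated cells, 12 of the 28 arrays of the series, and used the 6 arrays of untreated cells to say which drug had moved away from the untreated level. Desipramine and fluoxetine were each given at 25 µM for 2 h to cells that had been kept for 24 h without serum. The untreated cells had the same time without serum and received no drug, and no vehicle was stated for them. The remaining arrays held cells given haloperidol (6 arrays) or diazepam (4 arrays), and shared the normalization, the filter on dim probes and the estimate of the spread. The model is a single tumour line, each drug has a single dose and a single time, and the labels call the replicates biological. RNA was measured on Illumina bead arrays, which give 1 fluorescence intensity per probe. A level in a culture is an average over its cells, so fewer cells holding a transcript and less transcript per cell cannot be told apart.

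Desipramine is a tricyclic that blocks mainly the reuptake of noradrenaline, and fluoxetine is a selective inhibitor of serotonin reuptake. Both are also lipophilic amines that enter membranes and acidic compartments at high concentrations. Glial cells answer a drug within hours through fast signalling: immediate early genes that MAP kinases and Srf switch on, the integrated stress response in which the kinases of eIF2alpha raise translation of Atf4, and chemokine genes under NF-kappaB. The transporters that define the 2 classes were hardly measurable here. Slc6a2, the noradrenaline transporter, was above background on 2 desipramine, 1 fluoxetine and 2 untreated arrays of 6 each. Slc6a4, the serotonin transporter, was above background on 0 desipramine, 1 fluoxetine and 3 untreated arrays. The drugs differed by 0.16 ± 0.11 (SE) on the log2 scale for Slc6a2 and by -0.02 ± 0.09 for Slc6a4, with adjusted p of 0.436 and 0.945.

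Between 9852 and 10366 probes were above background on each desipramine or fluoxetine array. Of 13 astrocyte markers on the array, 10 were detected on all 18 arrays of the 3 groups, among them Gfap, S100b, Vim, Nes, Slc1a3 and Gja1, while Aqp4 and Fabp7 were on none. Markers of other cell types were mixed. Of 14 neuron markers 7 were on all 18 arrays, among them Nefl, Eno2 and Gad1, and 4 on none, among them Snap25 and Syp. Of 10 oligodendrocyte markers 5 were on all 18, among them Cspg4, Pdgfra and Cnp, and 3 on none (Mog, Mag and Mobp). Of 10 microglia markers Tmem119 alone was on all 18 and 5 on none, among them Aif1 and Ptprc, and of 7 endothelial markers Tie1 alone was on all 18 and 4 on none, among them Cdh5 and Vwf. The summed intensity of the astrocyte list ranged from 26100 to 28600 over desipramine arrays, from 27400 to 32400 over fluoxetine arrays and from 28700 to 31000 over untreated arrays. A pair of arrays stood apart from their groups. Desipramine array 6 lay close to the fluoxetine and untreated arrays for part of the genes below, and untreated array 1 lay close to the desipramine arrays for some of the same genes, so their values are given beside the main results they touch.

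Of 11364 probes tested, 942 (8.29%) differed between desipramine and fluoxetine at an adjusted p under 0.05 in limma, 420 (3.7%) of them higher with desipramine and 522 (4.59%) lower. By gene, 729 of 7958 (9.16%) differed, 335 higher with desipramine (4.21%) and 394 lower (4.95%). Most differences were small: 676 of the 942 were under 0.5 on the log2 scale, and a change of 2-fold or more was found for 15 that were higher and 11 that were lower with desipramine. The groups of 6 arrays did not overlap for 327 of the 942, against 3.27% of all probes tested (desipramine above fluoxetine for 1.5%, below it for 1.78%). With the replicate number as a block the count was 1485 (675 higher, 810 lower). With the arrays scaled to a common median in place of quantile normalization it was 354, of which 85 were higher (24%, against 44.6% as reported) and 269 lower.

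Each of the 942 probes was then set against untreated cells. The comparison of desipramine alone passed the threshold for 266 of them (28.2%), the comparison of fluoxetine alone for 142 (15.1%), and both passed with the same sign for 32 (3.4%). Both passed with opposite signs for 4 (0.425%). For the largest class, 498 probes (52.9%), neither drug differed from untreated cells at the threshold, and in 495 of these the means of the drugs lay on opposite sides of the untreated mean, by a median of 0.2 for desipramine and 0.175 for fluoxetine on the log2 scale. The change from untreated was larger with desipramine for 547 probes and with fluoxetine for 395. Over all probes tested, 5.59% differed between desipramine and untreated cells and 3.75% between fluoxetine and untreated cells, or 6.33% and 4.34% of genes. These classes describe the fit and were not tested, and both comparisons use the same untreated arrays. Without untreated array 1 and desipramine array 6, desipramine alone accounted for 535 of 1345 probes (39.8%), fluoxetine alone for 140 (10.4%) and neither for 601 (44.7%).

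**Figure D1:**
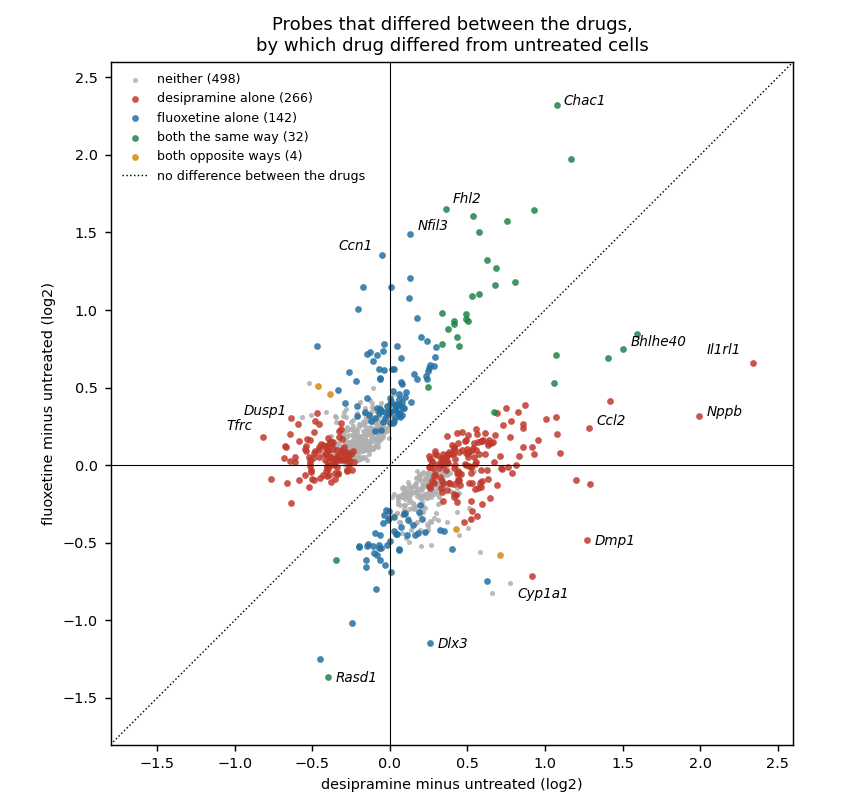
Each point is a probe that differed between the drugs (942 probes). The horizontal axis is desipramine minus untreated and the vertical axis fluoxetine minus untreated, both in log2 units, and colour gives which drug differed from untreated cells at the threshold. Points on the dotted line would show no difference between the drugs; Chac1 and Fhl2 lie above it in the quadrant where both drugs were above untreated cells, Il1rl1 and Nppb lie far to the right, and Dlx3 lies below 0 for fluoxetine. The axes share the 6 untreated arrays.

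Genes of the integrated stress response, which slows protein synthesis and induces amino acid metabolism and Ddit3, were in part lower in desipramine-treated than in fluoxetine-treated cells. Against untreated cells, 14 of the 30 measured members rose with desipramine and 16 with fluoxetine, and 0 fell with either. Over all 7958 genes tested, 316 rose and 188 fell with desipramine, and 210 rose and 135 fell with fluoxetine. Between the drugs, 8 were lower with desipramine than with fluoxetine and 1 was higher (30% called, against 9.16% of all genes), and the median difference was -0.221. This list and those below were chosen with earlier results of these data known, so their counts are descriptions. Chac1, an Atf4 target that degrades glutathione, ran from 5.97 to 6.78 (median 6.42) in desipramine-treated cells, from 7.35 to 8.05 (median 7.62) in fluoxetine-treated cells and from 5.18 to 5.4 (median 5.32) in untreated cells, in log2 intensity. The 3 groups did not overlap, and all desipramine arrays, array 6 at 6.09 included, lay between the other two. The difference between the drugs was -1.25 ± 0.16 (adjusted p = 7.88e-06), from a rise of 1.07 with desipramine and of 2.32 with fluoxetine. The untreated level of Chac1 was dim, near that of Olig2 (mean 5.34), which was detected on 12 of 18 arrays. The sizes of both rises are therefore inexact. Ddit3, the transcription factor CHOP, followed the same order: medians were 10.47 with desipramine, 11.36 with fluoxetine and 9.79 untreated, and the drugs differed by -0.93 ± 0.12 (adjusted p = 1.47e-05). Trib3, a pseudokinase induced by Atf4 and Ddit3, rose by 1.17 with desipramine and by 1.98 with fluoxetine, a difference of -0.81 ± 0.18 (adjusted p = 0.00447). Atf3, a stress-induced repressor, rose by 0.54 with desipramine and by 1.60 with fluoxetine. The difference between the drugs for Atf3 was -1.07 ± 0.13 (adjusted p = 2.73e-06), and no desipramine array reached the lowest fluoxetine array (7.36 against 7.6). Atf4 itself, Ppp1r15a, which restarts translation, and Slc3a2, a subunit of amino acid exchangers, rose with both drugs and differed between them by -0.59 to -0.46. Pck2, the mitochondrial PEP carboxykinase, rose with fluoxetine alone, and Cebpb, a leucine zipper factor that was 0.31 higher with desipramine, rose with desipramine alone (a call lost under median scaling, adjusted p = 0.476). Of 16 measured chaperones and folding enzymes of the endoplasmic reticulum, Herpud1 alone differed between the drugs (-0.53 ± 0.13, adjusted p = 0.00769), 6.25% of the list against 9.16% of all genes. The call on Herpud1 was lost under median scaling (adjusted p = 0.0657).

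The promoters of Chac1 and Trib3 are shown because both genes had desipramine between fluoxetine and untreated cells and both hold the composite element that Atf4 and a C/EBP partner bind. Sequences are 250 bases before the gene's start from RefSeq (GRCr8), 5′ to 3′ on the gene's strand, with matches to TGATGNAA on either strand in capitals. The Chac1 window is chr3:126795881-126796130 (+) and the Trib3 window chr3:161275534-161275783 (-).
Chac1: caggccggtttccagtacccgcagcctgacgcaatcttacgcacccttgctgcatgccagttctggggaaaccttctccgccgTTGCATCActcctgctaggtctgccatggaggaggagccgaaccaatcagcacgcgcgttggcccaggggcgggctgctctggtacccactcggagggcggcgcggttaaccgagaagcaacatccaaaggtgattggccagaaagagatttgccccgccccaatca
Trib3: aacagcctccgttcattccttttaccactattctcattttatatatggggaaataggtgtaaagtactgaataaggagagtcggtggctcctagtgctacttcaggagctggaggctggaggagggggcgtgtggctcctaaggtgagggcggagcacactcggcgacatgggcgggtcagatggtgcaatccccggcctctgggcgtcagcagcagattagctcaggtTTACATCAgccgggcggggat
Each held 1 match, on the strand opposite to the gene. Of the 8 members lower with desipramine, 7 had a promoter entry and 3 of these (Chac1, Trib3 and Pck2) held the motif, which 3.4% of all 33469 promoters of this length hold. A gene counted if any of its promoter entries matched, while the share is over single entries, so the figures are not fully alike.

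Genes linked to Srf and to the Yap coactivator, which follow actin dynamics and cell shape, were in part lower with desipramine than with fluoxetine. Of 16 measured members, 8 were lower and 0 higher (50% called, against 9.16% of all genes, median difference -0.391). Ccn1, a secreted matrix protein and Yap target, ran from 8.63 to 9.12 (median 8.9) with desipramine, from 9.69 to 10.76 (median 10.3) with fluoxetine and from 8.7 to 9.2 (median 8.87) untreated. The fluoxetine arrays lay above both other groups, which overlapped. The drugs differed by -1.41 ± 0.18 (adjusted p = 9.08e-06), fluoxetine was 1.35 ± 0.18 above untreated cells (adjusted p = 7.41e-06), and desipramine was -0.05 ± 0.18 from them (adjusted p = 0.931). Fhl2, a LIM protein that acts as a cofactor of Srf, differed by -1.29 ± 0.09 (adjusted p = 4.18e-11). Its medians were 8.04 with desipramine, 9.36 with fluoxetine and 7.73 untreated, with a rise of 0.36 under desipramine and of 1.65 under fluoxetine. Srf differed by -0.64 ± 0.08, Ccn2, a matrix protein like Ccn1, by -0.70 ± 0.09 and Rnd3, which opposes stress fibres, by -0.82 ± 0.13. All 3 rose with both drugs and more with fluoxetine. Lats2, a kinase that restrains Yap, did so too (-0.43), Ankrd1, a muscle ankyrin repeat protein, rose with fluoxetine alone (a call lost under median scaling, adjusted p = 0.137), and Ajuba, a LIM protein of cell junctions, differed between the drugs with neither past the threshold against untreated cells. Desipramine array 6 was the highest of its group for Fhl2 (8.37), Srf (10.64) and Rnd3 (9.9), still below every fluoxetine array, and the lowest for Ccn1 (8.63).

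The Srf promoter is shown because its window holds the CArG box, the site to which the Srf protein itself binds. Its 250 bases are chr9:21923826-21924075 (+, GRCr8, RefSeq), with CArG boxes in capitals.
Srf: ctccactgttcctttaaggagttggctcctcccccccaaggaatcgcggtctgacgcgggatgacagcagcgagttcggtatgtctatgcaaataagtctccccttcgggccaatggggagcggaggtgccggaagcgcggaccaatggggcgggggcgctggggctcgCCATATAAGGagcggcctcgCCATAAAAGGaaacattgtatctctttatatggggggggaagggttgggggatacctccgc
The Srf window held 2 CArG boxes. Of the 8 called members, 6 had a promoter entry and Srf, Fhl2 and Rnd3 held the box, which 1.5% of all promoters hold. Here too a gene counted if any of its promoter entries matched, while the share is over single entries.

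**Figure D2:**
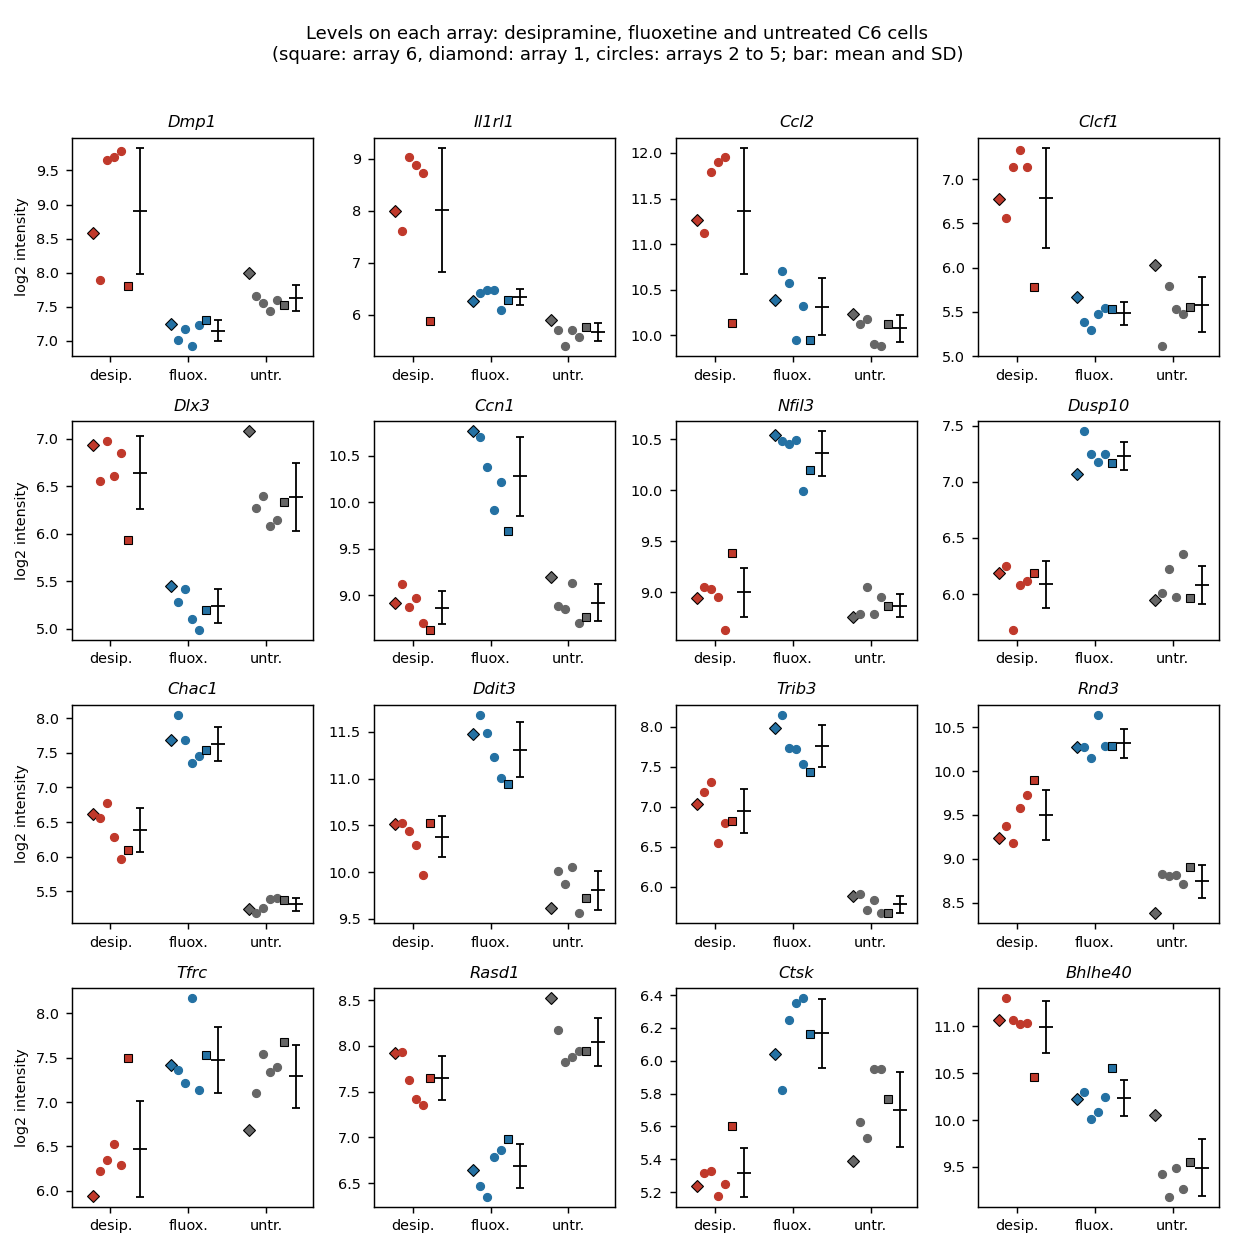
Log2 intensity of 16 genes on each desipramine, fluoxetine and untreated array, with the mean and SD of each group as a bar (n = 6). Squares mark array 6, diamonds array 1 and circles arrays 2 to 5. The fluoxetine points of Ccn1, Nfil3 and Dusp10 lie above both other groups, and the desipramine means of Chac1, Ddit3, Trib3 and Rnd3 lie between the fluoxetine and untreated means. The square of desipramine lies in the fluoxetine or untreated range for Il1rl1 and Ccl2, below its group, and for Tfrc, above its group.

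Several regulators rose with fluoxetine and not with desipramine. "Alone" refers to these 2 drugs: the haloperidol arrays ran from 9.32 to 9.88 for Nfil3, from 6.55 to 6.84 for Dusp10 and from 7.16 to 7.62 for Gnrh1, above the untreated arrays of each gene. Nfil3, a leucine zipper repressor of the clock, ran from 8.63 to 9.38 with desipramine, from 9.99 to 10.54 with fluoxetine and from 8.76 to 9.05 untreated, and differed between the drugs by -1.36 ± 0.11 (adjusted p = 1.02e-09). Dusp10, a phosphatase of the kinases p38 and JNK, had medians of 6.16 with desipramine, 7.21 with fluoxetine and 5.99 untreated. Its difference was -1.14 ± 0.09 (adjusted p = 7.18e-10), and desipramine lay 0.01 from untreated cells. Klf6, a zinc finger factor of injury responses, differed by -0.96 ± 0.13, with a rise of 1.08 under fluoxetine and a change of 0.12 ± 0.13 under desipramine. Gnrh1, which encodes a reproductive releasing hormone, differed by -1.32 ± 0.13, Flrt3, a membrane protein of axon guidance, by -1.24 ± 0.17, and Rab30, a small GTPase of the Golgi, by -1.08 ± 0.14. Desipramine array 6 read 10.09 for Rab30, against 8.87 to 9.34 on desipramine arrays 1 to 5. Gnrh1, Flrt3 and Rab30 were each past the threshold against untreated cells with fluoxetine and not with desipramine, though Flrt3 also fell with desipramine once untreated array 1 was left out (-0.57, adjusted p = 0.0403). Tmem140, a membrane protein, differed by -1.21 ± 0.14 on the probe with the higher mean and by -0.461 (adjusted p = 0.00909) on another probe of the gene. On the first probe the fluoxetine arrays (11.27 to 11.51) lay above the untreated arrays (9.83 to 10.66), which the desipramine arrays (9.82 to 10.77) overlapped. Among growth factors, Tgfb2 (-0.76 ± 0.13), Vegfc (-0.38) and Bdnf (-0.35) were lower with desipramine and rose with fluoxetine alone. The calls on Vegfc and Bdnf were lost under median scaling (adjusted p = 0.103 and 0.0555). Nfkbia, the inhibitor of NF-kappaB, rose with fluoxetine alone as well (difference -0.43), but not past the threshold without untreated array 1 (adjusted p = 0.0868).

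Clock genes were called in both directions and glucocorticoid targets in one. Of 13 measured clock genes, 3 were lower with desipramine (Nfil3, Nr1d1 and Per1) and 2 were higher (Bhlhe40 and Cry1, the second lost under median scaling with adjusted p = 0.404), 38.5% of the list against 9.16% of all genes. Nr1d1, the repressor Rev-erb alpha, rose by 0.74 with fluoxetine and lay -0.05 ± 0.11 from untreated cells with desipramine, a difference of -0.78 ± 0.11. Per1 rose with both drugs, more with fluoxetine, but its difference of -0.39 was lost under median scaling (adjusted p = 0.0943). Bhlhe40, a repressor of the clock induced by many stimuli, rose with both drugs and more with desipramine: medians were 11.05 with desipramine, 10.23 with fluoxetine and 9.46 untreated, and the difference was 0.76 ± 0.12. Of 14 measured glucocorticoid targets, 4 were lower with desipramine (28.6%, against 4.95% of all genes) and 0 higher. These were Dusp1, Mt1, Per1 and Tsc22d3 (GILZ, lost under median scaling with adjusted p = 0.275). Mt1, a metal-binding metallothionein, differed by -0.87 ± 0.19 and rose with fluoxetine alone, though 1 untreated array read 13.67, above the highest fluoxetine array at 13.23.

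Fewer genes were lowered by fluoxetine. Dlx3, a homeobox factor downstream of BMP signals, ran from 5.94 to 6.98 (median 6.73) with desipramine, from 4.99 to 5.45 (median 5.24) with fluoxetine and from 6.08 to 7.08 (median 6.3) untreated. The fluoxetine arrays lay below both other groups, and the drugs differed by 1.41 ± 0.16 (adjusted p = 1.11e-06). Dlx3 was above background on 6 desipramine, 3 fluoxetine and 6 untreated arrays, so the size of its change with fluoxetine, -1.15, is inexact. Its relatives Dlx1 (0.70 ± 0.10) and Msx1 (0.61 ± 0.15) differed in the same direction and also fell with fluoxetine alone. The fall of Msx1 was not past the threshold without untreated array 1 (adjusted p = 0.0618). Msx1 was dim with fluoxetine (median 5.29), so the size of its fall is inexact too. Of 14 measured BMP targets and antagonists, 5 were higher with desipramine and 0 lower (35.7% called, against 9.16% of all genes, median difference -0.0186). The other two were Fst, which encodes the antagonist follistatin and rose with desipramine alone, and Smad7, an inhibitor of the pathway, for which neither drug passed against untreated cells and whose difference was lost under median scaling (adjusted p = 0.324). Rasd1, a Ras-like protein that inhibits adenylate cyclase, fell with both drugs and further with fluoxetine. It ran from 7.35 to 7.93 with desipramine, from 6.35 to 6.98 with fluoxetine and from 7.82 to 8.52 untreated, and differed between the drugs by 0.97 ± 0.12 (adjusted p = 2.73e-06). Its change with desipramine, -0.40, was not past the threshold without untreated array 1 (adjusted p = 0.104). Nefl, a neurofilament subunit, fell with fluoxetine alone (difference 0.50 ± 0.08), a call lost under median scaling (adjusted p = 0.125).

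Several chemokine and cytokine genes rose with desipramine. Of 17 measured genes of NF-kappaB and inflammation, 6 were higher with desipramine than with fluoxetine and 1 was lower (41.2% called, against 9.16% of all genes, median difference 0.227). Il1rl1, the receptor of interleukin 33, read 7.99, 7.6, 9.04, 8.87, 8.73 and 5.87 on desipramine arrays 1 to 6, ran from 6.09 to 6.48 with fluoxetine and from 5.39 to 5.89 untreated. Desipramine arrays 1 to 5 were above every other array and array 6 lay within the untreated range. The difference was 1.68 ± 0.30 (adjusted p = 0.000603), and 2.11 without array 6. Ccl2, which recruits monocytes, read 11.27, 11.12, 11.79, 11.9, 11.96 and 10.14 on the desipramine arrays, ran from 9.95 to 10.71 with fluoxetine and from 9.88 to 10.24 untreated. Ccl2 thus showed the same split, with a difference of 1.05 ± 0.21 (adjusted p = 0.00148), or 1.29 without array 6. Ccl7, a neighbouring chemokine gene of the same family, differed by 1.02 ± 0.22 (array 6 at 7.27, the other desipramine arrays from 8.61 to 9.3), the adhesion molecule Icam1 by 0.30 and the chemokine Cxcl10 by 0.46, the last 2 lost under median scaling (adjusted p = 0.475 and 0.346). Il1rl1, Ccl2, Ccl7, Icam1 and Cxcl10 all rose with desipramine against untreated cells, while fluoxetine did not pass for any of them. For Il1rl1, however, every fluoxetine array lay above every untreated array (6.09 to 6.48 against 5.39 to 5.89). For Sod2, the mitochondrial superoxide dismutase and the sixth gene, neither drug passed against untreated cells. Clcf1, a cytokine of the gp130 family, ran from 5.78 to 7.33 with desipramine, from 5.3 to 5.67 with fluoxetine and from 5.11 to 6.03 untreated. Its desipramine array 6 was the lowest of the group at 5.78, inside the untreated range. Its difference was 1.30 ± 0.17 (adjusted p = 1.47e-05), with desipramine 1.20 ± 0.17 above untreated cells and fluoxetine -0.10 ± 0.17 from them. Clcf1 was dim with fluoxetine and untreated (medians 5.51 and 5.54), so these sizes are inexact. Socs1, the feedback inhibitor of such cytokines, differed by 1.37 ± 0.22 and was below untreated cells with fluoxetine (-0.75, adjusted p = 0.047). Without untreated array 1, which read 7.2 against 5.66 to 6.58 on untreated arrays 2 to 6, Socs1 was instead above untreated cells with desipramine (0.82, adjusted p = 0.00893) and did not pass with fluoxetine (adjusted p = 0.149).

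The largest difference of any named gene fell on Dmp1, an acidic matrix phosphoprotein best known from bone. It read 8.58, 7.89, 9.66, 9.7, 9.78 and 7.81 on the desipramine arrays, ran from 6.92 to 7.31 with fluoxetine and from 7.44 to 7.99 untreated. All desipramine arrays were above all fluoxetine arrays (difference 1.75 ± 0.24, adjusted p = 1.52e-05), and desipramine arrays 2 and 6 lay within the untreated range. Desipramine was 1.27 ± 0.24 above untreated cells and fluoxetine did not pass (-0.48 ± 0.24, adjusted p = 0.323), though every fluoxetine array lay below every untreated array. Nppb, the precursor of a natriuretic peptide, differed by 1.68 ± 0.27 (adjusted p = 0.000115), and Sox8, a transcription factor of the glial SoxE group, by 1.41 ± 0.21 (adjusted p = 5.07e-05). Both rose with desipramine alone. Nppb ran from 6.51 to 8.57 on desipramine arrays 1 to 5 and read 6.11 on array 6. It was dim with fluoxetine (5.37 to 6.18) and untreated (5.34 to 5.57), so the size of its difference is inexact. Areg, an EGF receptor ligand, was above background on 4 desipramine arrays and on 0 fluoxetine or untreated arrays, so its level was at least 1.29-fold higher with desipramine than with fluoxetine (adjusted p = 0.00909). Pdgfa, another growth factor, differed by 0.49 ± 0.09 and rose with desipramine alone, a call lost under median scaling (adjusted p = 0.0708).

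Immediate early genes were divided between the drugs: of 25 measured, 7 were higher with desipramine and 7 lower (56% called, against 9.16% of all genes, median difference -0.049). Klf10, a factor of TGF-beta signalling, ran from 8.68 to 9.66 with desipramine, from 8.21 to 8.55 with fluoxetine and from 7.56 to 9.05 untreated, and differed by 1.00 ± 0.17 (adjusted p = 0.000354). Klf10, Junb (0.84 ± 0.20), Ier3 (0.76 ± 0.20), Ier5 (0.43) and Fos (0.38) rose with desipramine alone, and for Nr4a3 and Klf4, the other two higher genes, neither drug passed against untreated cells. Without untreated array 1, the highest of its group for Klf10 at 9.05, Klf10 and Fos also passed against untreated cells with fluoxetine (adjusted p = 0.00376 and 0.0298). Untreated array 1 read 11.81 for Junb and 9.61 for Ier3, against 10.11 to 10.69 and 8.11 to 8.4 on untreated arrays 2 to 6. The differences of Junb, Ier3, Ier5, Fos and Jun were lost under median scaling (adjusted p = 0.0552, 0.078, 0.261, 0.382 and 0.0885). On the other side stood Ccn1, Ccn2, Klf6, Srf and Atf3, described above as higher with fluoxetine, together with Jun and Dusp1, which desipramine lowered. Among genes that tune MAP kinases and G proteins the calls were divided too, with 6 higher and 5 lower of 20 measured (55% called). Spry4, a feedback inhibitor of Ras signalling, rose with both drugs and more with desipramine (0.72 ± 0.16), while Dusp4 (0.49) and Dusp6 (0.48), phosphatases of ERK, rose with desipramine alone. Dusp8, a phosphatase of JNK and p38, rose with both and more with fluoxetine (-0.72 ± 0.14). The differences of Dusp4 and Dusp6 were lost under median scaling (adjusted p = 0.108 and 0.128).

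Desipramine lowered a smaller group of genes that fluoxetine left near the untreated level. Dusp1, a phosphatase that switches off MAP kinases, ran from 9.43 to 10.6 (median 9.79) with desipramine, from 10.62 to 10.98 (median 10.82) with fluoxetine and from 10.24 to 10.64 (median 10.53) untreated. Desipramine array 6, at 10.6, was the one array of its group within the untreated range. The drugs differed by -0.94 ± 0.13 (adjusted p = 2.94e-05), with desipramine -0.64 ± 0.13 from untreated cells. Tfrc, the transferrin receptor for iron uptake, read 5.94, 6.22, 6.35, 6.53, 6.29 and 7.5 on the desipramine arrays, ran from 7.14 to 8.17 with fluoxetine and from 6.69 to 7.68 untreated. Array 6 of desipramine was the one that reached the other groups, and the difference was -0.999 ± 0.21 (adjusted p = 0.00262). Olig1, an oligodendrocyte lineage factor (-0.73 ± 0.14), Rgs2, which shortens G protein signals (-0.70 ± 0.13), Bnip3, a mitochondrial protein induced by hypoxia (-0.57 ± 0.11), and Adm, the precursor of the vasodilator adrenomedullin (-0.64 ± 0.15), also fell with desipramine alone. Array 6 was the highest desipramine array for Olig1 (6.49, the others from 5.43 to 5.86) and Rgs2 (7.65, the others from 6.94 to 7.15). Of 19 measured genes of hypoxia and glycolysis, 3 were lower with desipramine and 0 higher (15.8% called, against 9.16% of all genes), the third being Aldoc (-0.27), for which neither drug passed against untreated cells and whose difference was lost under median scaling (adjusted p = 0.282).

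Ctsk, the protease cathepsin K, was the only named gene that both drugs moved past the threshold in opposite directions. It read 5.24, 5.32, 5.33, 5.18, 5.25 and 5.6 with desipramine, 6.04, 5.82, 6.25, 6.35, 6.38 and 6.16 with fluoxetine and 5.39, 5.63, 5.53, 5.95, 5.95 and 5.77 untreated. The untreated mean lay between those of the drugs, and the untreated arrays overlapped both groups. The drugs differed by -0.85 ± 0.10 (adjusted p = 2.91e-06), desipramine was -0.39 ± 0.10 and fluoxetine 0.46 ± 0.10 from untreated cells (adjusted p = 0.0198 and 0.00613). It was above background on 3 desipramine arrays and on all 6 of each other group, so the desipramine level is inexact. The other 3 probes of this class had no gene symbol here. Of 28 measured genes of lysosome and autophagy, Ctsk and the sialidase Neu1 (0.42 ± 0.10, lost under median scaling with adjusted p = 0.349) were called, 7.14% of the list against 9.16% of all genes. For Neu1 neither drug passed against untreated cells.

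Genes of the aryl hydrocarbon receptor, the receptor of planar aromatic compounds that induces drug-metabolizing enzymes, were in part higher with desipramine, and which drug passed against untreated cells depended on 1 untreated array. The list was drawn up after the differences were seen, so its count is a description: 4 of 7 measured members were higher with desipramine and 0 lower (57.1% called, against 9.16% of all genes). Cyp1a1, the cytochrome P450 most closely tied to the receptor, read 6.88, 6.91, 6.4, 6.06, 6.39 and 4.67 with desipramine, from 4.63 to 4.77 with fluoxetine and 7.18, 5.02, 4.76, 5.09, 5.22 and 5.4 untreated. It was above background on 5 desipramine, 0 fluoxetine and 2 untreated arrays, which puts it at least 1.92-fold higher with desipramine than with fluoxetine (adjusted p = 0.00123). Cyp1b1, a related P450, read 11, 11.09, 10.76, 10.45, 10.6 and 9.01 with desipramine, ran from 8.7 to 9.26 with fluoxetine and read 10.93, 9.63, 9.62, 9.33, 9.81 and 9.63 untreated. Desipramine arrays 1 to 5 and untreated array 1 were high for both genes, and desipramine array 6 was low. The drugs differed by 1.48 ± 0.24 for Cyp1b1 (adjusted p = 0.000148), by 1.14 ± 0.21 for the aldehyde dehydrogenase Aldh3a1 (adjusted p = 0.000721) and by 0.73 ± 0.14 for Nqo1, a quinone reductase (adjusted p = 0.00107). Against all 6 untreated arrays neither drug passed for any of these 4 genes. Without untreated array 1, desipramine was above untreated cells by 0.88 for Cyp1b1, 0.77 for Aldh3a1 and 0.58 for Nqo1 (adjusted p = 0.0112, 0.0117 and 0.00261), and the differences of fluoxetine from them, -0.60, -0.37 and -0.16, were not past the threshold. Cyp1a1 passed with desipramine as well (adjusted p = 0.00242), but nearly all remaining untreated arrays were at background, so no size is given. In the other drugs, Cyp1a1 ran from 4.65 to 5.11 with haloperidol and from 5.73 to 6.39 with diazepam. Sema7a, a membrane-anchored semaphorin, had the same layout, with untreated array 1 at 9.81 and arrays 2 to 6 from 8.18 to 8.44, and desipramine array 6 at 8.29 against 9.37 to 10.02 on arrays 1 to 5. It differed between the drugs by 1.64 ± 0.22 (adjusted p = 1.55e-05) and rose with desipramine with untreated array 1 (0.92, adjusted p = 0.0102) and without it (1.16, adjusted p = 0.000105). All fluoxetine arrays of Sema7a (7.74 to 8.01) lay below all untreated arrays (8.18 to 9.81), so part of the difference lay on the side of fluoxetine.

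**Figure D3:**
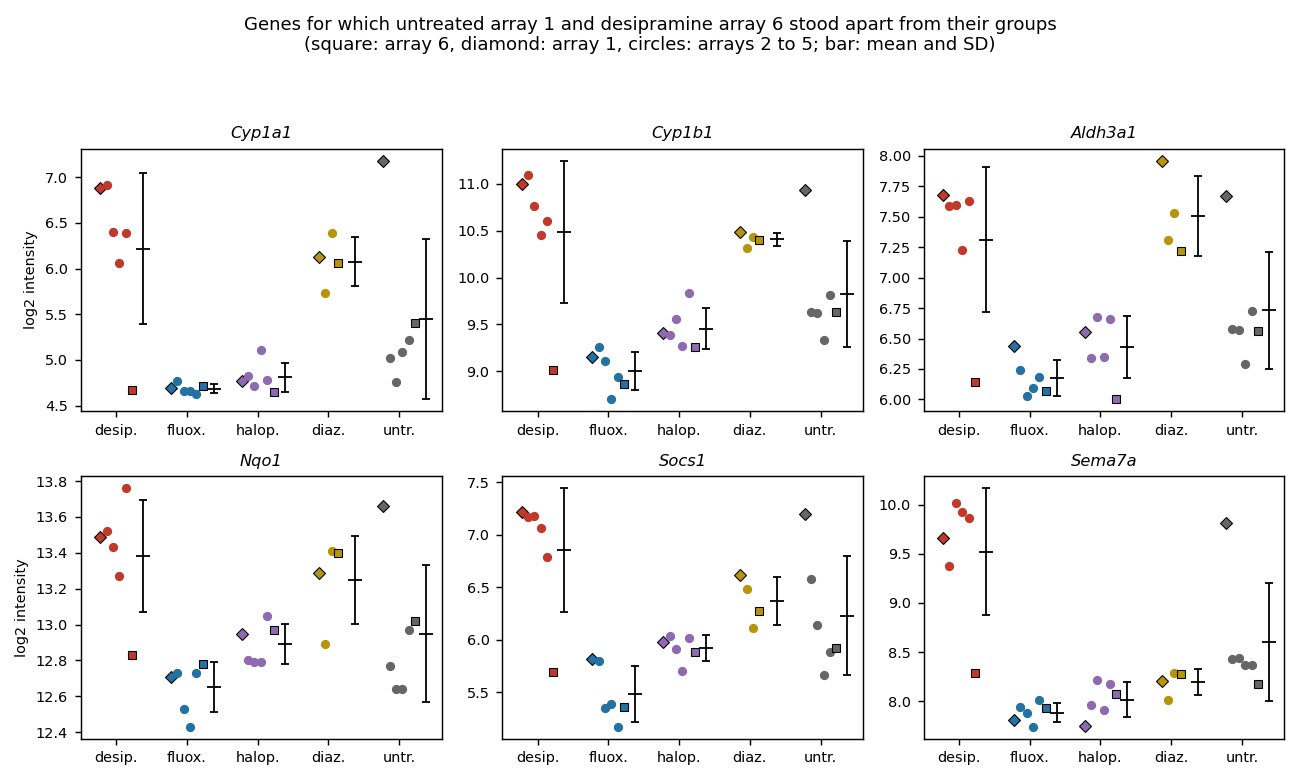
Log2 intensity of 6 genes on each array of desipramine, fluoxetine, haloperidol, diazepam and untreated cells, with mean and SD (n = 6, and 4 for diazepam). Squares mark array 6 and diamonds array 1. The untreated diamond lies among the desipramine points, except for Cyp1a1, where it lies above them at 7.18. The desipramine square lies among the fluoxetine or untreated points, at 4.67 for Cyp1a1.

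The Cyp1b1 promoter is shown because its window holds the xenobiotic response element, to which the receptor binds with Arnt. The window is chr6:21094315-21094564 (+, GRCr8, RefSeq), with the 1 match to TNGCGTG on either strand in capitals.
Cyp1b1: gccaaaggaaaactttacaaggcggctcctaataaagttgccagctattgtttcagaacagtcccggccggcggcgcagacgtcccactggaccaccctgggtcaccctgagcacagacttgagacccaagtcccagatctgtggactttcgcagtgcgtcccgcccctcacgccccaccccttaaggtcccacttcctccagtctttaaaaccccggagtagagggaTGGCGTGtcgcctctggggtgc
The letters occur in 4.09% of all promoters of this length. Of the 4 called genes, Cyp1b1 and Nqo1 had a promoter entry, and the Nqo1 window held no match.

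Oxidative stress genes under Nrf2 were higher with desipramine for 4 of 18 measured (22.2% called, against 9.16% of all genes) and lower for 0. Hmox1, the heme oxygenase, rose with both drugs and more with desipramine: it ran from 10.53 to 10.93 with desipramine, from 9.93 to 10.7 with fluoxetine and from 9.4 to 10.01 untreated, and differed by 0.53 ± 0.11 (adjusted p = 0.00196). Gclc, which makes the precursor of glutathione, rose with desipramine alone (difference 0.73 ± 0.12, adjusted p = 0.000121). Nqo1, given above, and Txnrd1, a thioredoxin reductase (0.68 ± 0.18), passed against untreated cells with desipramine once untreated array 1 was left out. The differences of Hmox1 and Txnrd1 were lost under median scaling (adjusted p = 0.0746 and 0.106).

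Several lists had no more calls than the background. Cholesterol synthesis had 1 of 18 measured members called (Msmo1), fatty acid synthesis 1 of 14 (Acss2), and the cell cycle 2 of 28 (Ccnd1 and Ccne2), shares of 5.56%, 7.14% and 7.14% against 9.16% of all genes. Of 38 transporters and receptors of the monoamines on the array, 14 were measured and 0 of these were called, with differences from -0.0916 to 0.162. Many of the 14 were dim: medians with desipramine were 5.25 for Slc6a2, 5.17 for Slc6a4 and 5.45 for Drd1. Differences of such dim probes are understated, so the lack of calls says little about these genes. Brighter members, such as Chrm3 (median 10.21 with desipramine) and Maoa (8.60), did not differ at the threshold either. Markers of microglia (5 measured) and endothelium (3 measured) had 0 called. The astrocyte list had 1 of 11 called (Aldoc, 9.09%). The lists that follow had larger shares than all genes. The neuron list had 3 of 10 called (Nefl, Nefm and Eno2, 30%) and the oligodendrocyte list 2 of 7 (Sox10 and Olig1, 28.6%). The called markers of these 3 lists were detected on all 18 arrays. Lineage transcription factors had 6 of 16 higher with desipramine, among them Sox8, Dlx1 and the Notch target Hes1, and 1 lower, Olig1 (43.8% called). Growth factors had 3 of 20 higher and 4 lower (35% called), and iron genes 1 of 10 in each direction (Hmox1 and Tfrc, 20% called). The calls on Acss2, Msmo1, Ccnd1, Ccne2, Nefm and Sox10 were lost under median scaling (adjusted p from 0.144 to 0.476).

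**Figure D4:**
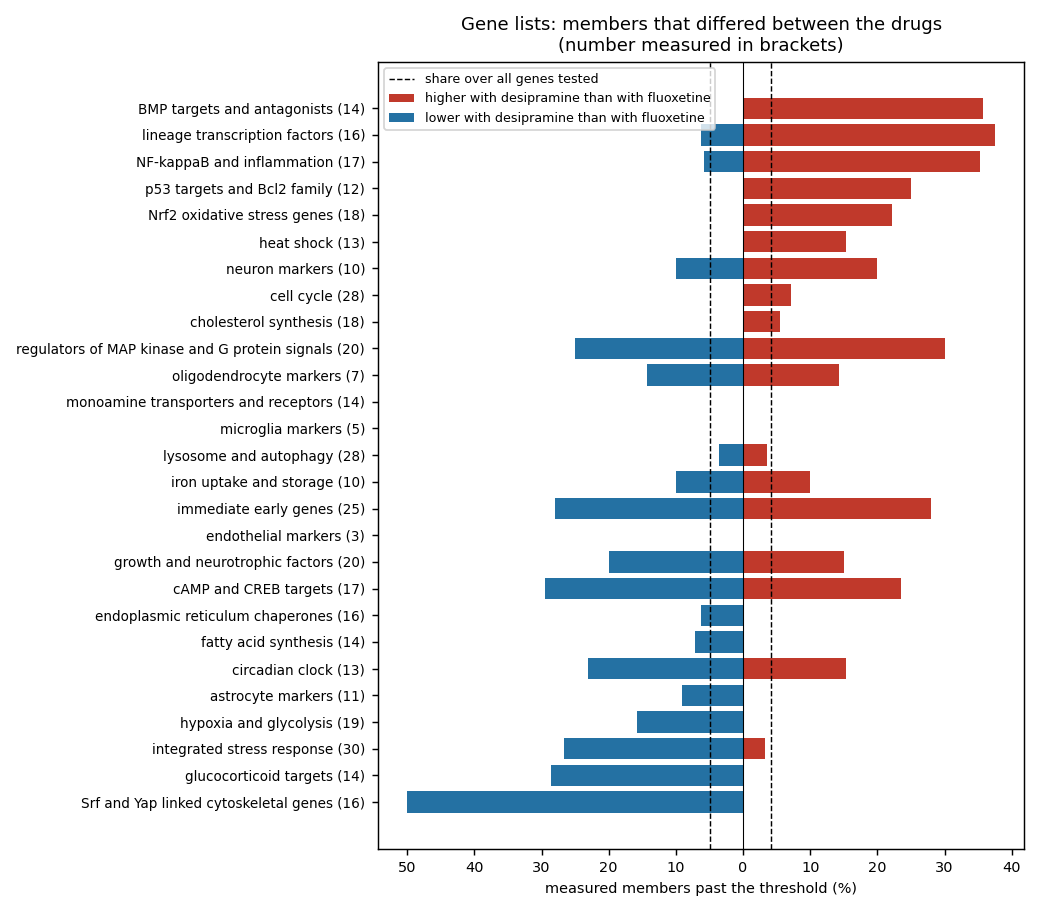
Share of the measured members of each gene list that were higher (red, right) or lower (blue, left) with desipramine than with fluoxetine at an adjusted p under 0.05, in percent, with the number measured in brackets. Dashed lines give the shares over all 7958 genes, 4.21% higher and 4.95% lower. The list linked to Srf and Yap extends furthest to the left, with 8 of 16 members.

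Part of the response was common to both drugs and did not differ between them at the threshold. Of the genes that both changed in the same direction, the 6 with the largest mean change were Gdf15, Epha2, Cxcl1, Rasl11b, Serpinb2 and Ptgs2. Gdf15, a stress cytokine under Ddit3, ran from 5.65 to 6.51 with desipramine and from 6.19 to 7.34 with fluoxetine, and was not above background on any untreated array. Its difference was -0.47 with a 95% interval from -0.80 to -0.15 (adjusted p = 0.0625), and it passed under median scaling (adjusted p = 0.0481). Epha2, an ephrin receptor, rose by 1.27 with desipramine and 1.59 with fluoxetine, and the 95% interval of the difference was -0.65 to -0.000105. Ptgs2, the inducible cyclooxygenase, rose by 1.22 with desipramine and 0.87 with fluoxetine (interval -0.04 to 0.74). It did differ without desipramine array 6 (0.53, adjusted p = 0.0376). For Cxcl1, Serpinb2 and Rasl11b the intervals were -0.71 to 0.37, -0.14 to 0.50 and -0.06 to 0.60, and differences within those bounds were not resolved by 6 arrays a group.

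The evenness of the arrays was examined by placing each array on the probes called without it, with 0% at the mean of the other drug and 100% at the mean of its own group's remaining arrays. Desipramine array 6 reached a median of 22.3% of the difference over the 560 probes that were higher with desipramine and 31.7% over the 659 that were lower. The other desipramine arrays reached 69.8% to 129% and the fluoxetine arrays 79.8% to 102%. Leaving out desipramine array 6 raised the count to 1219 probes, of which 894 were among the 942, whereas leaving out desipramine array 3 or 4 lowered it to 614 or 605. On array 6 some stress genes lay within the range of the other desipramine arrays (Chac1 at 6.09, Ddit3 at 10.52, Trib3 at 6.83 and Hmox1 at 10.57). Others lay outside it: Atf3 (7.36, the others from 6.52 to 7.13) and Atf4 (11.13, the others from 10.83 to 11.06) above, Gdf15 (5.65, the others from 5.99 to 6.51) and Cth, a cysteine-forming enzyme (5.54, the others from 6.01 to 6.27), below. Il1rl1, Ccl2, Cyp1b1 and Tfrc stood with fluoxetine or untreated cells. What set this array apart was not tested. Over arrays numbered 1 to 4 alone 880 probes were called, and 836 of them (95%) had the same sign over arrays numbered 5 and 6, where limma called 0 probes and 751 were under an unadjusted p of 0.05. The difference between these sets of arrays passed the threshold for 0 probes (306 at an unadjusted p under 0.05).

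**Figure D5:**
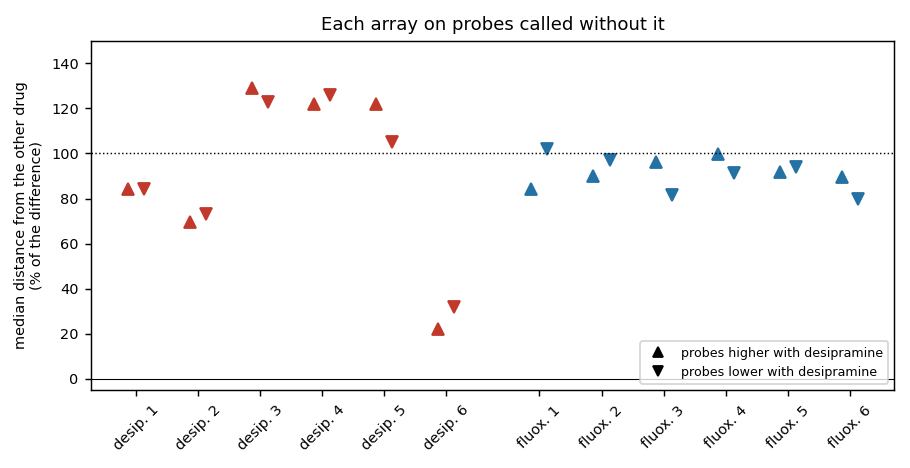
For each array, the median distance from the mean of the other drug in percent of the difference between the drugs, over probes called with that array left out. Upward triangles are probes higher and downward triangles probes lower with desipramine. Desipramine array 6 lies at 22.3% and 31.7%, and every other array at 69.8% or above.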

How the data were processed

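The authors deposited a table they named non-normalized, with a fluorescence intensity on a linear scale and a detection p-value for each probe and array, read with GenomeStudio 1.9.0 per the submitters' processing notes. The deposited detection p-value moves in steps of 1 in 825. They also deposited normalized intensities whose method is not given in the sources used here, used only as an alternative. 4 further columns, of 2 arrays, had no sample and were not used.

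The intensities were background-corrected and quantile-normalized with neqc (limma 3.58.1, R 4.3.3), with the offset set to 16 and the negative controls reconstructed by neqc from detection p, so differences of dim probes are understated. Probes detected (p under 0.05) on at least 4 of 28 arrays were kept (11364 of 22523). Symbols came from the platform annotation (13793 probes with 1 symbol, 8730 with none), and each gene was represented by its kept probe with the highest mean. Levels and differences are log2 values and errors are SE unless stated. limma fitted 1 mean per group over all 28 arrays, and p was two-sided and adjusted by Benjamini-Hochberg over all kept probes (threshold 0.05). Fit and calls were tested on simulated data. The number of arrays limits the precision.

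The genes named were, by rule, the 12 largest differences in each direction detected on at least 4 arrays of the higher group, the 4 largest of each class of attribution, opposite movers, up to 4 members of each list, 6 shared changes and the transporters. Other called list members were named as examples after their values were seen. The comparison, the lists and the rule were chosen with earlier results of these data known, and the lists of the aryl hydrocarbon receptor and of gp130 cytokines after the differences were seen. Of the latter, 2 of 7 measured members were called, Clcf1 and Socs1 (28.6%, against 9.16% of all genes).

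Deviations from the group means of same-numbered arrays correlated from 0.139 to 0.462 for desipramine with fluoxetine, 0.223 to 0.467 for desipramine with untreated and 0.104 to 0.508 for fluoxetine with untreated. For numbers 5 and 6 the best-correlated array of the other group had the same number in every pair of groups. For number 1 it had a different number in every pair, and for numbers 2, 3 and 4 in part of the pairs. The numbers thus pair the arrays only in part, and the fit with the replicate block is given beside the counts. A bound "at least N-fold" sets the brighter mean against the detection limit of the dimmer group.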

Additional observations from a re-analysis of the deposited data

Results flagged for a closer look

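A sample of a group of 6 was marked where its gap to the nearest other array exceeded Dixon's 95% limit. Chance marks about 1 in 20 groups, and 19 of 140 were marked here, 13 of them on desipramine array 6. That array was low for Cyp1b1 (9.01, against 10.45 to 11.09 on the other desipramine arrays), Socs1 (5.69), Aldh3a1 (6.14), Klf10 (8.68), Ccl7 (7.27), Phlda1 (8.93), Bhlhe40 (10.46), Sik1 (6.91), Pdgfa (11.92) and Foxa2 (8.21). It was high for Ctsk (5.6), Rgs2 (7.65) and Eno2 (10.07). Elsewhere, Dusp10 was low on desipramine array 3 (5.68) and Per1 on desipramine array 4 (7.85), and Msx1 was high on desipramine array 5 (6.57). Fluoxetine array 4 was high for Rnd3 (10.64) and Aldoc (13.65) and low for Olig1 (6.12).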

How the results depend on the processing

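No result reversed its direction under any alternative where it was called. The count of probes that differed, 942, ranged from 605 to 1219 when single arrays were left out, with 279 to 560 higher and 324 to 659 lower. It was 354 (85 higher, 269 lower) under median scaling, 1485 (675 and 810) with the replicate block, 1778 (809 and 969) with the block and without desipramine array 6, an alternative chosen after seeing the data, and 0 (0 and 0) over arrays numbered 5 and 6. Leaving out both untreated array 1 and desipramine array 6 gave 1345 (623 and 722). The other settings gave 790 to 1391. The classes desipramine alone, fluoxetine alone, both the same way, both opposite and neither held 266, 142, 32, 4 and 498 probes. They ranged over 147 to 435, 101 to 162, 24 to 38, 2 to 21 and 316 to 563 when single arrays were left out. They held 90, 48, 10, 1 and 205 under median scaling and 476, 289, 57, 17 and 646 with the block. With the block and without desipramine array 6 they held 678, 313, 63, 41 and 683. Array weights gave 525 for desipramine alone, 51 for both the same way and 21 opposite, the deposited normalized values 2 opposite, leaving out all arrays numbered 6 gave 13 opposite, and leaving out untreated array 1 and desipramine array 6 gave 535 for desipramine alone, 23 opposite and 601 for neither (the last 2 chosen after seeing the data). Over arrays numbered 5 and 6 every class held 0. Called members over all gene lists fell to 52 under median scaling and 0 over arrays numbered 5 and 6, and ranged over 77 to 100 when single arrays were left out. Of the 70 named genes past the threshold, 19 lost it under median scaling, 7 over arrays numbered 1 to 4, 7 in the fit of 12 arrays, 4 without the filter, 2 with the deposited values and at most 8 when an array was left out. The replicate block ended no call among them. All 70 had an exact permutation p under 0.05, 67 of them after adjustment over the 119 named genes. These 70 genes were past the threshold on the same arrays, so the permutation test adds no independent support. For dim probes the signal over background limits the size of a difference.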

Other observations

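Sik1, a kinase induced by cAMP, and Phlda1, a regulator of cell death and signalling, were higher with desipramine than with fluoxetine (0.91 ± 0.17 and 0.88 ± 0.24, adjusted p = 0.000768 and 0.0167 in limma). Phlda1 rose with desipramine alone, and for Sik1 neither drug passed against untreated cells. Untreated array 1 read 7.96 for Sik1 and 10.29 for Phlda1, above the other untreated arrays. Of 17 measured cAMP and CREB targets, 4 were higher and 5 lower with desipramine (52.9% called, against 9.16% of all genes). Klf15, a factor of amino acid and glucose metabolism, was lower with desipramine by 1.05 ± 0.16 on the log2 scale (adjusted p = 9.18e-05), with all desipramine arrays (5.17 to 6.56) below all fluoxetine arrays (6.84 to 7.28). Its untreated arrays (6.34 to 6.64) lay below the fluoxetine arrays and overlapped the desipramine arrays, and neither drug passed against them (-0.52 and 0.53, adjusted p = 0.0587 and 0.0653). Phlda3, a p53 target that restrains Akt, rose with desipramine alone (difference 0.64 ± 0.12, adjusted p = 0.000609). Of 13 measured heat shock genes 2 were higher with desipramine, Bag3 (0.36) and Dnaja1 (0.19), or 15.4% called against 9.16% of all genes. Dnaja1 rose with desipramine alone, and for Bag3 neither drug passed against untreated cells. The call on Bag3 was lost under median scaling (adjusted p = 0.261).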
